A study of Mus musculus with 6 samples.

Results

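The 36 genes described here belong to the megakaryocyte and platelet programme: surface adhesion receptors, agonist receptors, granule proteins, secretion and cytoskeleton genes, signal transducers, the thromboxane enzymes and a few regulators. They were listed by gene symbol, matched to the Entrez rows of a count table of 15845 genes, and kept where the 6 libraries together held at least 10 counts, which all 36 did. RNA came from bone marrow LSK cells of C57BL/6 mice, that is lineage-negative, Sca1-positive, c-Kit-positive cells, a sort that collects blood stem cells and early multipotent progenitors and is meant to leave out megakaryocytes and platelets. Every mouse, controls included, was Mx1Cre; Jak2VF/VF, so both copies of Jak2 carry the V617F allele of myeloproliferative neoplasms and Cre is driven by the interferon-responsive Mx1 promoter. The first group of 3 libraries came from mice given vehicle (PBS in the labels) and the other group of 3 from mice given TP-3654, which the series title describes as an inhibitor of Pim1, at 150 mg/kg/day, both for 6 weeks. The design text calls the 3 libraries of a group biological replicates, and neither the age of the mice, nor how Cre was induced, nor any pooling is given in the sources used here.

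Megakaryocytes are large bone marrow cells that shed platelets. Cytokine signals that pass through Jak2 drive their growth, and GATA, ETS and RUNX transcription factors switch on their genes. Platelets stick to injured vessels through the glycoprotein Ib-IX-V complex, which binds von Willebrand factor, and through the integrin made of the Itga2b and Itgb3 chains, which binds fibrinogen, and they release granules filled with chemokines, adhesive proteins and growth factors. Several of these genes (Itga2b, Vwf, Selp and others) are also transcribed in blood stem cells with a bias toward the platelet lineage, so a signal from them in LSK cells does not need megakaryocytes in the sort.

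Library totals ran from 20582057 to 25315596 counts, and 3 counts, the limit that a count of 0 allows, was worth 0.116 to 0.153 CPM (a gene's counts relative to the library total after edgeR's TMM adjustment). The sort marker Kit stood at 365 to 581 CPM and Ly6a, which encodes Sca1, at 40.0 to 69.2 CPM. Pim1 had a log2 fold change of 0.28 and Jak2 one of -0.09 between the groups, with libraries that overlapped, beside 1.20 for Pim2 and -0.08 for Pim3. All fold changes are TP-3654 over vehicle, from edgeR's quasi-likelihood test, with p-values adjusted over 13149 tested genes by the Benjamini-Hochberg method. The p-values rest on the spread among 3 libraries a group. Since the RNA is of a bulk population, fewer cells of a type and less RNA per cell cannot be told apart in any value below.

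The promoters of 26 members were found in a RefSeq table (GRCm38.p6), as 1 window per gene of 250 bases before to 50 after a listed start. Where several starts were listed, the first was used, and it need not be the outermost. For Gp9, Pear1, Ptgs1 and Tbxas1, among others, that start lies inside the gene's annotated span. The windows of Pf4, Gp5, Gp9, Itga2b and Pear1 are shown. The first 3 genes were lower on average with TP-3654. The other 2 had no overlap between the groups and were higher with TP-3654. These 5 were chosen after their values were seen, and by unlike criteria, since the groups overlapped for Pf4, Gp5 and Gp9. Capitals mark matches on either strand, and overlapping matches run together. For the GATA factors, which open erythroid and megakaryocyte genes, the letters searched were GATAAG. Its close variants AGATAA, which often overlaps the first, and, by the same rule, TGATAA were counted as GATA matches as well. For the ETS factors, the family of Fli1, the search used CGGAAG. A version with another first base, AGGAAG, was counted as an ETS match as well. For the RUNX factors, the family of Runx1, the search used TGTGGT. The sequences read 5′ to 3′ on the gene's own strand.
Pf4 (chr5:90772185-90772484, plus strand): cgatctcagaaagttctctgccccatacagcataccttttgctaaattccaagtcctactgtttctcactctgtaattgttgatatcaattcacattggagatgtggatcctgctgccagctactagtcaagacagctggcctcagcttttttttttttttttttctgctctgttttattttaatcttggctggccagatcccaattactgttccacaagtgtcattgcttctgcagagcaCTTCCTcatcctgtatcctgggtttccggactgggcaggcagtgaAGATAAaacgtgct
Gp5 (chr16:30310732-30311031, minus strand): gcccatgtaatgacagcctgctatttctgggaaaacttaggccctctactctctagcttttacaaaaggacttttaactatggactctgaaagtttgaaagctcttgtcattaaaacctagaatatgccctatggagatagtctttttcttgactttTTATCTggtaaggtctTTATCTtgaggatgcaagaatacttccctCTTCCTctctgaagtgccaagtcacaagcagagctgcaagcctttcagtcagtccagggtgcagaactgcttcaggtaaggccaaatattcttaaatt
Gp9 (chr6:87777820-87778119, plus strand): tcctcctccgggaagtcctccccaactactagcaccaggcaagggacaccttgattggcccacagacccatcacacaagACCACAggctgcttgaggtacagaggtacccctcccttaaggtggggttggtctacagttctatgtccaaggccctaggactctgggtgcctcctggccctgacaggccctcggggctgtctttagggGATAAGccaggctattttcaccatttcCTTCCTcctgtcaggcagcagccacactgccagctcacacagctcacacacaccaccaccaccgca
Itga2b (chr11:102469834-102470133, minus strand): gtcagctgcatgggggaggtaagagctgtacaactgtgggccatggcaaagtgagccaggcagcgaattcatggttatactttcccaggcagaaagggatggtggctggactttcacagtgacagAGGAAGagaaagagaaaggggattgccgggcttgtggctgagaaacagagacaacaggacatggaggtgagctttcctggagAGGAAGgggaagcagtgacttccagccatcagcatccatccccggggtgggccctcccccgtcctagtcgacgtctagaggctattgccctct
Pear1 (chr3:87768904-87769203, minus strand): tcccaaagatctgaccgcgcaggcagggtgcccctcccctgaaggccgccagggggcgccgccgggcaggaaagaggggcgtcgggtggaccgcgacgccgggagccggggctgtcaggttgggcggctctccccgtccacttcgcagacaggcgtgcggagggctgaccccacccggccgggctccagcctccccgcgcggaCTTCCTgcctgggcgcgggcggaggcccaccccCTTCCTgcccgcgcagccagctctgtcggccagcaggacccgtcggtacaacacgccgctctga

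Pf4 held an ETS match that begins 9 bases before the listed start and a GATA match 37 bases into the transcript. Gp9 held an ETS match 16 bases, a GATA match 43 bases and a RUNX match 171 bases before its listed start, which lies inside the gene. Gp5 held GATA matches 93 and 77 bases and an ETS match 48 bases before its listed start. Itga2b and Pear1 held 2 ETS matches each in this window and no GATA match. The members that were lower without overlap between the groups were Clec1b, Treml1 and F10. Of these, Clec1b held GATA matches and no ETS match, and Treml1 and F10 held neither. Over all 26 promoters, 16 (61.5%) held an ETS match, 8 (30.8%) a GATA match and 2 (7.69%) a RUNX match. Among 27025 genes with a promoter in the table the shares were 46.4%, 20.7% and 16.9%, and among the 10475 of them tested here they were 55.0%, 12.3% and 12.7%. Both a GATA and an ETS match were found in 5 members, Gp1ba, Gp5, Gp9, F2rl2 and Pf4, 19.2% of the 26, against 8.69% of all promoters and 6.57% of those of tested genes. Those 5 had log2 fold changes from -0.73 to -0.16, all below 0. Without TP-3654 replicate 3, Gp1ba and Gp9 were at -0.04 and -0.08. In the authors' deposited comparison both were above 0 (0.05 and 0.08), and Gp5, F2rl2 and Pf4 were below. With all libraries, the 9 tested members with an ETS match and no GATA match had values from -0.42 to 0.56. Of these, 6 were above 0. The 7 members with neither match were also mostly below 0, 6 of 7, with values from -2.14 to 0.44. These 6 include F2r (-0.00) and Pdgfa (-0.01), whose sign changed with other settings. Of the 2 tested members with a GATA match and no ETS match, Clec1b was below 0 (-1.06) and Mmrn1 above (0.79). These are descriptions of short windows, with no test, and a missing match says only that the letters are not in the window.

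**Figure D1:**
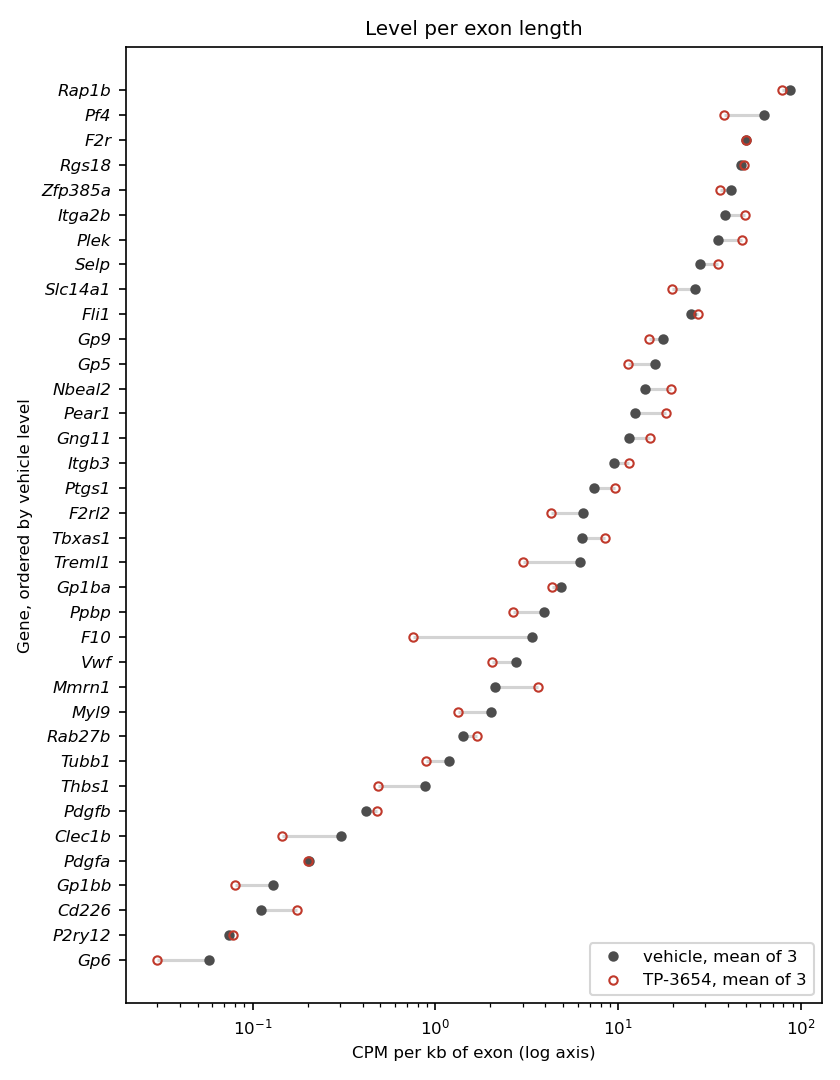
Mean level of each of the 36 genes in CPM per kb of exon (log axis), ordered by the vehicle mean, with filled points for the mean of 3 vehicle libraries and open points for the mean of 3 TP-3654 libraries. The levels span from 0.0576 (Gp6) to 87.5 (Rap1b) in vehicle, and the open point of F10 lies far to the left of its filled point.

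The programme was present in part in the LSK cells, as the plot of level per exon length shows. The scale of CPM per kb of exon allows a rough comparison of genes. Its length counts all annotated exons of a gene, used in these cells or not (0.721 kb for Pf4, 5.9 kb for Gp6). On this scale the level in vehicle was highest for Rap1b, a small GTPase found in most blood cells (87.5). Next were the platelet chemokine Pf4 (62.8), the thrombin receptor F2r (50.3) and the signalling regulator Rgs18 (47.2). Rap1b stood at the 95.9th percentile of 13071 tested genes with an exon length and Pf4 at the 93.4th. The integrin chain Itga2b, known on cells as CD41, stood at 38.5 CPM per kb, about the level of Zfp385a (41.6) and Plek (35.1), whereas its partner Itgb3 stood at 9.46. The surface glycoproteins Gp9 and Gp5 stood at 17.7 and 15.9 CPM per kb, the 72.7th and 70.0th percentiles. At the low end were the platelet tubulin Tubb1 at 1.19, the C-type lectin receptor Clec1b at 0.303 and the collagen receptor Gp6 at 0.0576 CPM per kb.

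Gp6, P2ry12 and Gp1bb did not pass the filter on low counts and were not tested. Gp6 held 12, 4 and 8 counts in vehicle and 4, 9 and 0 with TP-3654, and P2ry12, the ADP receptor that clopidogrel blocks, held 4, 4 and 5 counts in vehicle and 2, 9 and 3. Gp1bb held 8, 10 and 1 counts in vehicle and 8, 2 and 1. Of the 2087 annotated exon bases of Gp1bb, 1902 also belong to Sept5 on the same strand, so the count of Gp1bb depends on how the authors' counting treated shared reads, which is not given in the sources used here, and is uncertain. In all, 11 members share some exon bases with another annotated gene, on the same or the opposite strand, and Plek (199 bases shared with Cnrip1) and Pear1 (321 with Lrrc71) are among them, at a small part of their exons.

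The members had no common direction with TP-3654. Of the 33 members tested, 15 had a log2 fold change above 0 and 18 below, and the median was -0.01, beside 0.01 over all tested genes. EdgeR called 0 members at an adjusted p of 0.05, and 0% of all tested genes (0 of 13149). At an unadjusted p under 0.05, 6 members were higher (18.2% of 33, beside 10.2% of all genes) and 2 were lower (6.06%, beside 6.84%). The TP-3654 libraries lay above every vehicle library for Itga2b, Pear1, Nbeal2 and Tbxas1 (12.1%, beside 14.3% of all genes) and below every vehicle library for Clec1b, Treml1 and F10 (9.09%, beside 11.6%). DESeq2 called Pear1 higher (adjusted p = 0.0139, and 3% of the genes it gave an adjusted p were higher) and Treml1 and F10 lower (adjusted p = 0.0137 and 0.00502, and 1.92% were lower), of 33 members with an adjusted p. limma-voom called 0 members.

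**Figure D2:**
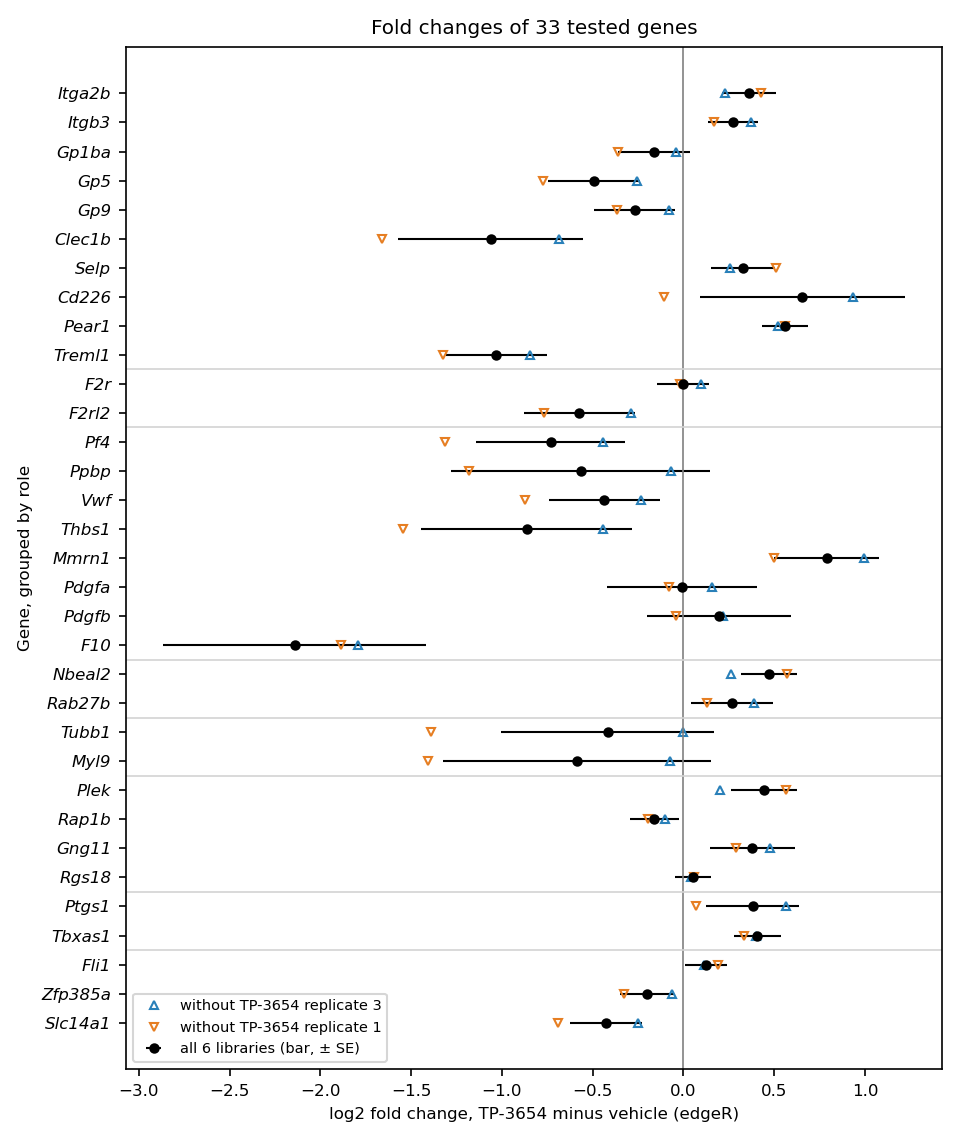
Log2 fold change of TP-3654 over vehicle for the 33 tested genes, grouped by role from adhesion receptors (top) to regulators and transport (bottom). Black points with bars are the fit on all 6 libraries with its standard error, blue triangles the fit without TP-3654 replicate 3 and orange triangles the fit without TP-3654 replicate 1; for Pf4 the values were -0.73, -0.44 and -1.31.

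Among the adhesion receptors, the fibrinogen receptor chains lay higher on average with TP-3654 and the tested von Willebrand receptor chains lower. No chain passed over all genes. Without TP-3654 replicate 3, Gp5, Gp9 and Gp1ba were at -0.26, -0.08 and -0.04 on the log2 scale. In the authors' deposited comparison Gp5 was at -0.13, while Gp9 (0.08) and Gp1ba (0.05) were above 0. Itga2b (chromosome 11, 102453297 to 102469883, GRCm38) stood at 177, 212 and 241 CPM in vehicle replicates 1 to 3 and at 245, 252 and 314 CPM in TP-3654 replicates 1 to 3. The gap was narrow, since vehicle replicate 3 came within a few CPM of TP-3654 replicate 1 (log2 fold change 0.36, SE 0.15, adjusted p = 0.263). Itgb3 stood at 60.8, 55.7 and 51.0 CPM and 77.1, 68.4 and 57.0 CPM, with overlap between the groups (log2 fold change 0.27, SE 0.14, adjusted p = 0.335).

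The glycoprotein Ib-IX-V complex is built from the products of Gp1ba, Gp1bb, Gp5 and Gp9. Gp5 (chromosome 16, 30307685 to 30310781) stood at 30.9, 36.7 and 37.3 CPM in vehicle and 33.5, 25.4 and 15.5 CPM with TP-3654. Replicate 1 of TP-3654 lay inside the vehicle range and the other TP-3654 libraries lay below it (log2 fold change -0.49, SE 0.25, adjusted p = 0.351). Gp9 stood at 17.7, 13.3 and 15.7 CPM and 14.6, 15.0 and 9.10 CPM, and only TP-3654 replicate 3 lay below the vehicle range. Gp1ba, whose chain holds the binding site for von Willebrand factor, stood at 13.4, 12.9 and 13.1 CPM and 14.8, 11.0 and 9.45 CPM (log2 fold change -0.16). Its TP-3654 libraries lay on both sides of the vehicle libraries.

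Treml1 and Pear1 had the smallest p of the members below and above 0. Treml1 (chromosome 17, 48359916 to 48367176) encodes a receptor stored in platelet granules and moved to the surface on activation. Its level was 9.62, 7.75 and 8.71 CPM in the vehicle libraries and 5.83, 3.95 and 2.96 CPM with TP-3654. All 3 TP-3654 libraries lay below all vehicle libraries, at 4.25 ± 1.46 against 8.69 ± 0.935 CPM (SD, n = 3), 2.04-fold lower. Its fit gave a log2 fold change -1.03, SE 0.28, adjusted p = 0.137. Pear1 (chromosome 3, 87749097 to 87769110), a platelet endothelial aggregation receptor that signals when platelets touch, stood at 90.8, 69.9 and 91.1 CPM and 124, 119 and 129 CPM. The TP-3654 libraries were close to each other and above every vehicle library, at 124 ± 5.05 against 83.9 ± 12.1 CPM (SD, n = 3), 1.47-fold higher. Its fit gave a log2 fold change 0.56, SE 0.13, adjusted p = 0.0936. Leaving out any 1 library kept Pear1 between 0.43 and 0.62 and Treml1 between -1.33 and -0.84 on the log2 scale.

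The remaining adhesion receptors showed wider spread or lower levels. Selp, the P-selectin of alpha granules, stood at 133, 110.5 and 125 CPM and 113, 183 and 167 CPM, where TP-3654 replicates 2 and 3 lay above and replicate 1 inside the vehicle range (log2 fold change 0.33). Clec1b, the receptor for podoplanin also named CLEC-2, stood at 1.46, 1.40 and 1.79 CPM and 1.25, 0.697 and 0.256 CPM. It was lower in each TP-3654 library, by a small margin in replicate 1 (log2 fold change -1.06, SE 0.51, adjusted p = 0.322). The lowest of these values rests on 5 counts. Cd226, an adhesion receptor that platelets share with lymphocytes, held 95 counts over all libraries, of which 34 were in TP-3654 replicate 1, and its fitted value of 0.66 became -0.11 without that library.

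**Figure D3:**
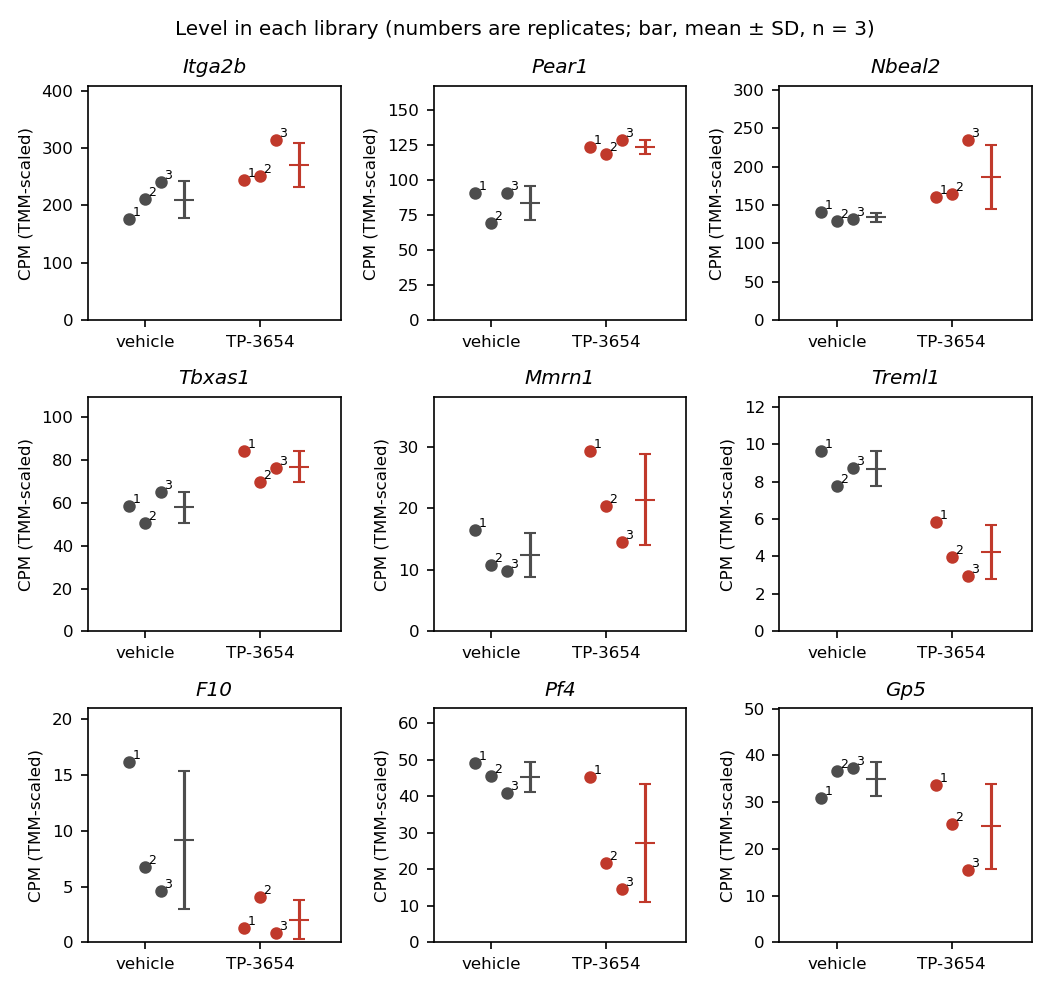
CPM (linear axes from 0) of 9 members in each library, vehicle in grey and TP-3654 in red, with replicate numbers beside the points and the mean ± SD of 3 libraries beside each group. Itga2b, Pear1, Nbeal2 and Tbxas1 have no overlap between the groups and lie higher with TP-3654, Treml1 and F10 have none and lie lower, and Mmrn1, Pf4 and Gp5 overlap.

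The agonist receptors tested were F2r and F2rl2, both with fitted values at or below 0. F2r, which encodes the thrombin receptor PAR1, stood at 161, 190.0 and 152 CPM in vehicle and 171, 190.0 and 141 CPM with TP-3654, with groups that covered much the same range (log2 fold change -0.00). F2rl2, also on chromosome 13 and the gene of the thrombin co-receptor PAR3, stood at 18.1, 16.6 and 13.4 CPM and 13.6, 12.9 and 5.83 CPM. The low value of TP-3654 replicate 3 stood apart from the other libraries (log2 fold change -0.57, SE 0.30, adjusted p = 0.362).

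Granule and secreted proteins had 6 of 8 members below 0, Pdgfa by only -0.01. Their median log2 fold change was -0.50, with 0 called by edgeR and 1 by DESeq2. Before adjustment, 1 of 8 had p under 0.05 below 0 (12.5%, beside 6.84% of all tested genes) and 1 above (12.5%, beside 10.2%). Of all tested genes, 6297 of 13149 were below 0. Pf4 (platelet factor 4) and Ppbp (the precursor of a neutrophil-attracting chemokine) lie close together on chromosome 5, Ppbp at 90768518 to 90770063 and Pf4 at 90772435 to 90773383. Pf4 stood at 49.3, 45.5 and 41.0 CPM in vehicle and 45.4, 21.8 and 14.6 CPM with TP-3654. TP-3654 replicate 1 lay among the vehicle libraries, and replicates 2 and 3 lay below all of them (log2 fold change -0.73, SE 0.41, adjusted p = 0.405). Ppbp stood at 5.32, 3.33 and 4.12 CPM and 4.90, 3.29 and 0.409 CPM, where the single low library, TP-3654 replicate 3, held 8 counts.

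Vwf, the adhesive multimer that tethers platelets, stood at 41.6, 52.4 and 39.3 CPM and 50.1, 26.0 and 22.5 CPM (log2 fold change -0.44). Thbs1, which encodes thrombospondin 1, stood at 6.31, 6.48 and 3.25 CPM and 5.18, 2.75 and 0.869 CPM (log2 fold change -0.86, -1.55 without TP-3654 replicate 1 and -0.44 without replicate 3). Both repeated the order seen for Pf4, with TP-3654 replicate 1 inside the vehicle range and replicates 2 and 3 below it. Mmrn1, the gene of multimerin 1, a factor V binding protein, went the other way at 16.4, 10.9 and 9.81 CPM and 29.3, 20.4 and 14.6 CPM (log2 fold change 0.79, SE 0.29, adjusted p = 0.231). Here TP-3654 replicate 1 was the highest and replicate 3 lay inside the vehicle range. Of the platelet-derived growth factor genes, Pdgfa was near the limit of the test, at 0.552, 0.720 and 0.642 CPM and 0.694, 0.735 and 0.460 CPM. Pdgfb stood at 2.44, 1.13 and 1.60 CPM and 2.59, 1.47 and 1.89 CPM. The groups overlapped for each.

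F10 (chromosome 8, 13037308 to 13056676), which encodes coagulation factor X, had the largest fitted change among the members. Its level was 16.2, 6.75 and 4.58 CPM in vehicle and 1.25, 4.03 and 0.869 CPM with TP-3654, at 9.16 ± 6.15 and 2.05 ± 1.72 CPM (SD, n = 3). The groups did not overlap, but vehicle replicate 1 was far above the other vehicle libraries and TP-3654 replicate 2 came close to vehicle replicate 3 (log2 fold change -2.14, SE 0.73, adjusted p = 0.230). Its fitted value ran from -3.11 without TP-3654 replicate 2 to -1.45 without vehicle replicate 1, and its unadjusted p was above 0.05 there and without TP-3654 replicate 1 or 3. F13a1, a coagulation factor gene of monocytes as well as platelets that was picked after its values were seen, was also highest in vehicle replicate 1, at 401, 183 and 106 CPM in vehicle and 82.0, 105 and 53.6 CPM with TP-3654. Genes of granulocyte-monocyte progenitors also had a lower summed level with TP-3654, 5376 to 11654 CPM against 15516 to 18920.2 CPM, and their part in the F10 difference was not tested.

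Nbeal2, which is needed to form alpha granules and is lost in gray platelet syndrome, stood at 141, 129 and 132 CPM in vehicle and 160.0, 164 and 234 CPM with TP-3654. All TP-3654 libraries were higher, replicate 3 by the most (log2 fold change 0.47, SE 0.15, adjusted p = 0.186). The secretory GTPase gene Rab27b overlapped at 19.7, 13.1 and 12.2 CPM and 21.5, 18.1 and 14.7 CPM. Tubb1, the beta-1 tubulin of the platelet marginal band, stood at 1.66, 1.71 and 1.65 CPM and 2.50, 0.890 and 0.358 CPM, and the myosin light chain gene Myl9 at 2.52, 2.21 and 2.25 CPM and 2.91, 1.55 and 0.153 CPM. For both, the vehicle libraries agreed closely and the TP-3654 libraries ran from above to below them, down to 7 and 3 counts in replicate 3.

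Both thromboxane genes had fitted values above 0. Ptgs1 encodes cyclooxygenase 1, the target of aspirin, and Tbxas1 the synthase that makes thromboxane A2 from its product. Tbxas1 (chromosome 6, 38864159 to 39084590) stood at 58.4, 50.3 and 64.8 CPM in vehicle and 84.1, 69.7 and 76.4 CPM with TP-3654, without overlap (log2 fold change 0.41, SE 0.13, adjusted p = 0.183). Ptgs1 stood at 35.5, 24.7 and 25.9 CPM and 52.1, 33.4 and 26.7 CPM, and its log2 fold change of 0.38 became 0.07 without TP-3654 replicate 1.

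The signal transducers include the member that varied least relative to its mean. This was Rgs18, a brake on G protein signalling in platelets, with 100.4, 90.5 and 96.8 CPM in vehicle and 98.5, 100.2 and 99.6 CPM with TP-3654. Plek, the gene of the protein kinase C substrate pleckstrin, stood at 177, 157 and 139 CPM and 176, 189 and 278 CPM, where TP-3654 replicate 1 lay just under vehicle replicate 1 and replicate 3 was the highest (log2 fold change 0.44, SE 0.18, adjusted p = 0.266). Gng11, a G protein gamma subunit gene, had a log2 fold change of 0.38 and Rap1b, the GTPase that activates the platelet integrin, one of -0.16, both with overlap.

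Fli1, the ETS factor that drives late megakaryocyte genes, stood at 84.7, 96.0 and 81.9 CPM in vehicle and 86.4, 104 and 95.7 CPM with TP-3654, with overlap (log2 fold change 0.13). Zfp385a, a zinc finger gene needed for platelet production, stood at 99.2, 109 and 106 CPM and 107, 95.3 and 71.4 CPM. The urea transporter gene Slc14a1 stood at 106, 109 and 102 CPM and 105, 73.4 and 57.2 CPM (log2 fold change -0.43, SE 0.20, adjusted p = 0.316). For both of the last genes, TP-3654 replicates 2 and 3 were below every vehicle library and replicate 1 was not.

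**Figure D4:**
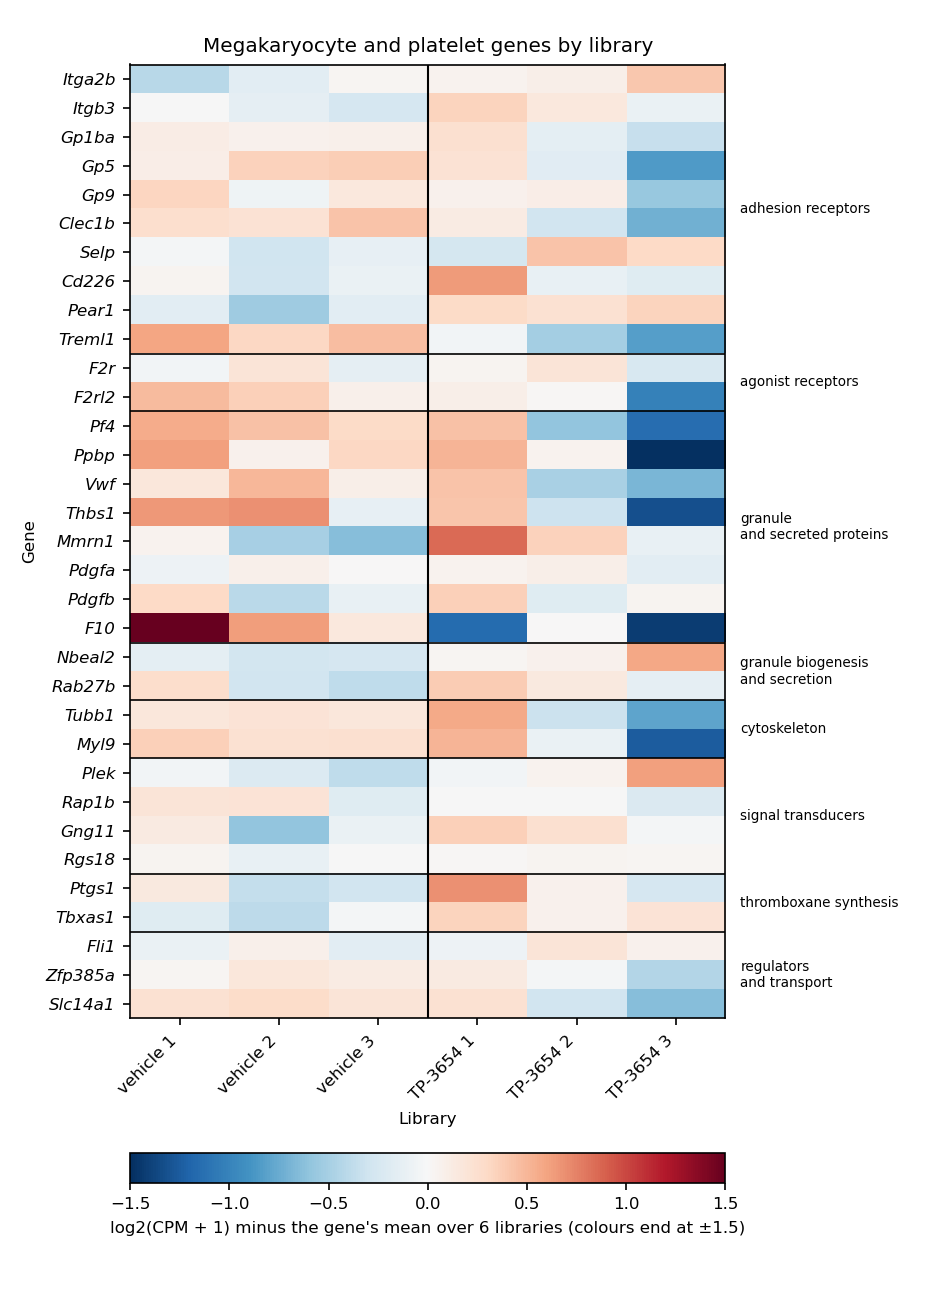
Log2(CPM + 1) of the 33 tested genes in each of the 6 libraries, minus the gene's mean over libraries, grouped by role (red higher, blue lower, colours end at 1.5 in either direction). TP-3654 replicate 3 is the lowest library for 18 of the 33 genes and TP-3654 replicate 1 the highest for 11.

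The TP-3654 libraries differed from each other more than the vehicle libraries did over these genes, as the heat map by library shows. The median SD of log2(CPM + 1) over members was 0.37 in TP-3654 and 0.17 in vehicle, beside 0.17 and 0.16 over all tested genes. TP-3654 replicate 3 was the lowest of the 6 libraries for 18 of 33 members (54.5%), beside 32.3% of all tested genes. TP-3654 replicate 1 was the highest for 11 members (33.3%), beside 11.2%. Replicate 3 was also the highest library for 4 members, Itga2b, Pear1, Nbeal2 and Plek (12.1%), beside 28.9% of all tested genes.

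Several of these values depended on single libraries. Without TP-3654 replicate 1, 9 members were lower at an unadjusted p under 0.05 (Clec1b, F2rl2, Gp5, Pf4, Slc14a1, Thbs1, Treml1, Tubb1 and Vwf) against 2 with all libraries, and 5 were higher, beside 6.38% of all genes lower and 9.64% higher in that fit. Without TP-3654 replicate 3 only Treml1 was lower and 6 were higher, Itgb3, Mmrn1, Nbeal2, Pear1, Ptgs1 and Tbxas1, beside 5.27% of all genes lower and 7.28% higher. Without vehicle replicate 2, Pear1 was the only one of the 6 higher members left, with F10 and Treml1 lower, beside 7.54% of all genes higher and 5.35% lower. Tubb1 changed from -0.42 to -1.39 without TP-3654 replicate 1 and to -0.00 without replicate 3 on the log2 scale, and Vwf from -0.44 to -0.87 and -0.23. Without TP-3654 replicate 1 and without replicate 3, Clec1b was -1.66 and -0.68, Ppbp -1.18 and -0.07, and Myl9 -1.41 and -0.07. In each of these fits edgeR called 0 members over all genes.

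**Figure D5:**
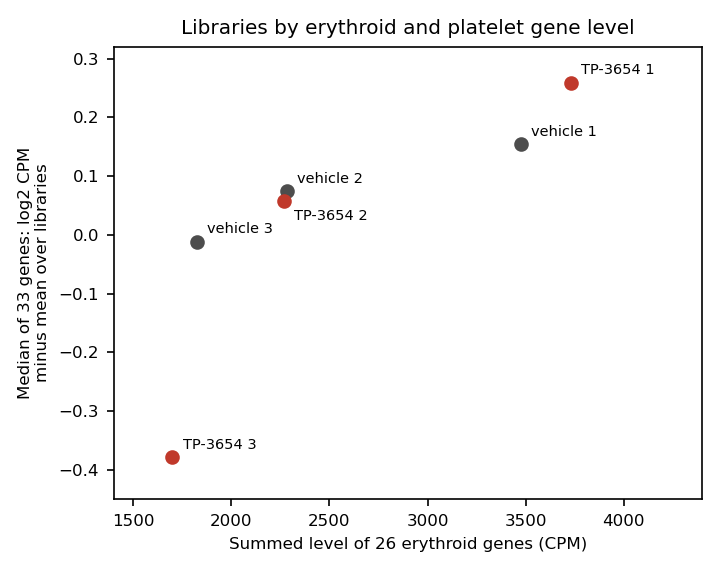
Each point is 1 library: the summed CPM of 26 erythroid genes against the median, over 33 tested megakaryocyte and platelet genes, of log2 CPM minus the gene's mean over libraries (vehicle grey, TP-3654 red). TP-3654 replicate 1 and vehicle replicate 1 are high on both axes and TP-3654 replicate 3 is low on both.

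The libraries had the same order by the summed level of erythroid genes and by the median deviation of the members, which are unlike measures. Summed over 26 erythroid genes, the level was 3732 CPM in TP-3654 replicate 1, 3476 in vehicle replicate 1, 2283 in vehicle replicate 2, 2266 in TP-3654 replicate 2, 1823 in vehicle replicate 3 and 1698 in TP-3654 replicate 3. The median deviation of the 33 members put the 6 libraries in the same order, at 0.26, 0.15, 0.07, 0.06, -0.01 and -0.38 on the log2 scale. By summed CPM the 36 members had another order, with every TP-3654 library above every vehicle library. The sums in replicates 1 to 3 were 2104, 2064 and 2077 CPM with TP-3654 and 1965, 1920 and 1841 CPM in vehicle. Gata1, the factor that erythroid cells and megakaryocytes share, stood at 93.0, 84.0 and 80.9 CPM in vehicle and 76.3, 56.3 and 25.8 CPM with TP-3654. Every TP-3654 library was below every vehicle library, replicate 3 by far the most (log2 fold change -0.70, SE 0.38, adjusted p = 0.393). The part of Gata1 and of the erythroid genes in the member values was not tested. Of the 26 erythroid genes (median log2 fold change -0.07), edgeR and DESeq2 each called 0. Before adjustment 1 was higher (3.85%, beside 10.2% of all tested genes) and 1 lower (3.85%, beside 6.84%). Not all of the erythroid genes followed the order of the erythroid sums: the haemoglobin gene Hba-a1 was at 332 CPM in TP-3654 replicate 3, above every vehicle library.

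Megakaryocyte regulators outside the 36 genes had a median near 0. Of 19 tested, edgeR called 0 over all genes and DESeq2 called 2, both higher (beside 3% of all genes it gave an adjusted p). Their median was 0.01. Before adjustment 3 were higher with p under 0.05 (15.8%, beside 10.2% of all tested genes) and 0 lower (beside 6.84%). Among them were Meis1 (log2 fold change 0.63) and Etv6 (0.27). Mef2c, which did not reach that p, had a log2 fold change of 0.23.

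Of 72 other platelet and megakaryocyte genes tested, edgeR called 0 and DESeq2 called 7 higher and 1 lower. Of all genes that DESeq2 gave an adjusted p, 3% were called higher and 1.92% lower. Before adjustment 13 were higher (18.1%, beside 10.2% of all tested genes) and 4 lower (5.56%, beside 6.84%) with p under 0.05. The median was 0.09. The 4 with the smallest p were all higher: the lactate dehydrogenase gene Ldhb (log2 fold change 1.07), the Tie2 ligand gene Angpt1 (0.84), the phospholipase gene Plcg2 (0.56) and the transglutaminase gene Tgm2 (0.76). Angpt1 stood at 158, 200.3 and 145 CPM and 251, 275 and 375 CPM and Plcg2 at 238, 254 and 268 CPM and 311, 369 and 439 CPM, both without overlap. Many genes of this list are also active in blood stem cells.

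Lists of genes of other marrow cell types are given beside these values, with edgeR calling 0 genes in each list. Beside the counts below stand 10.2% of all tested genes higher and 6.84% lower at an unadjusted p below 0.05. For DESeq2 calls the shares of all genes were 3% higher and 1.92% lower. These lists, like those above, were chosen with earlier results of these data known. Their counts are therefore descriptions, and the shares are no independent yardstick for them. Of 15 stem cell genes, 10 were higher and 0 lower with an unadjusted p below 0.05, edgeR called 0 and DESeq2 8, and their summed level was 347 to 437 CPM in vehicle and 639.9 to 669 CPM with TP-3654. Of 20 genes of granulocyte-monocyte progenitors, 15 were lower and 0 higher, with 0 called by edgeR and 10 by DESeq2, with a median log2 fold change of -1.16. Of 10 mast cell and basophil genes, 4 were lower (0 called by edgeR, 3 by DESeq2), with a sum of 458 to 559 CPM against 128 to 509 CPM. Of 10 genes of mature neutrophils and monocytes 2 were lower, of 9 lymphoid genes 3 were higher and 1 lower, of 9 endothelial genes 4 were higher and 1 lower, of 4 stromal genes 1 was higher, and of 16 proliferation genes 8 were lower, all with an unadjusted p below 0.05, while edgeR called 0. DESeq2 called 1, 4, 3, 1 and 4 of these lists' genes. Some genes are counted in more than 1 list. Meis1 is in the stem cell list as well as among the regulators, and Tie1 is in the stem cell and endothelial lists. Nkg7, the lower lymphoid gene, is also in the granulocyte-monocyte progenitor list. The part of these shifts in the member values was not tested. Pear1, Selp, Mmrn1 and Vwf are also endothelial genes, and the endothelial list summed to 413 to 495 CPM in vehicle and 511 to 567 CPM with TP-3654. Within it the 4 genes of smallest p were Tie1 (log2 fold change 0.82), Plvap (-1.27), Erg (0.50) and Emcn (1.14). Tie1 stood at 54.3, 37.3 and 49.5 CPM in vehicle and 86.1, 83.9 and 78.7 CPM with TP-3654. The other tested genes of the list were Vegfc (0.75), Tek (0.44), Kdr (-0.23), Pecam1 (-0.04) and Egfl7 (0.04). Pecam1 averaged 148 CPM in vehicle and 144 CPM with TP-3654, and Egfl7 64.6 and 66.5 CPM. Some untested genes of the list were near 0. Cdh5 stood at 0.315, 0.360 and 0.0917 CPM in vehicle and 0.185, 0.155 and 0.256 CPM with TP-3654, and Cldn5 at 1 count in the 6 libraries together. The genes of this list beyond the first 4 were named after their values were seen. The part of endothelial RNA in the member values was not tested.

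The authors' own comparison was deposited as a table of fold changes. In the authors' deposited table, F10 was the only member of 32 compared with an adjusted p under 0.05 (deposited log2 fold change -2.02, deposited adjusted p = 0.0107). For Pear1 the authors' deposited table has 0.59 (deposited adjusted p = 0.0569), for Treml1 -0.68 (0.357), for Pf4 -0.30 (0.840) and for Gp5 -0.13 (0.858). Gp1ba and Gp9 were above 0 there, at 0.05 (0.936) and 0.08 (0.932). The median over the 32 members was 0.10 in the authors' deposited table and -0.09 in a DESeq2 fit of the deposited counts. Of the 32 members, 28 had the same sign in both. Over these members the authors' deposited table differed from that fit by a median of 0.18 on the log2 scale, and by 0.08 from the same fit without TP-3654 replicate 3, the closest of 7 fits (all libraries, and leaving out each). Which libraries and settings entered the deposited comparison is not given in the sources used here.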

How the data were processed

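RNA of 6 LSK samples was measured by polyA RNA-seq. The deposited values are raw counts per Entrez gene, in 1 table made by the authors. A second table the authors deposited holds their comparison: the signal (mean of normalized counts), the log2 fold change, the Wald score and the p-value, raw and adjusted. Reads were handled with HISAT2 2.1.0, SAMtools 1.9.0 and DESeq2 on mm10 (GRCm38), per the submitters' processing notes, which give these names with no order. Which program counted reads, on which annotation, and whether by strand is not given in the sources used here.

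Symbols were found for 15839 of 15845 rows. Samples were grouped by the labels' treatment. edgeR 4.0.16 (R 4.3.3) was run with filterByExpr, TMM factors and a robust quasi-likelihood fit, and p-values were adjusted by the Benjamini-Hochberg method at 0.05. The filter kept 13149 genes and removed 2696, which held 0.0674% of the counts. A standard error is the absolute log2 fold change divided by the square root of F. On counts simulated for these 13149 genes, the test recovered 64 of 100 genes changed 2-fold and 94 of 100 changed 4-fold. The changed genes were drawn without those of lowest mean level, and each gene was given the same dispersion in both groups. The members' median SD was 0.37 with TP-3654 and 0.17 in vehicle, so these rates need not hold for them. Alternatives were DESeq2 1.42.0, limma 3.58.1 (voom, also with sample weights), other scaling factors and filters, a replicate block and leaving out each library. Totals of 20582057 to 25315596 counts put 3 counts at 0.116 to 0.153 CPM, and this floor covers counting error only.

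The members and the lists of other genes (regulators, other platelet genes, erythroid, granulocyte-monocyte progenitor, neutrophil and monocyte, mast cell, stem cell, lymphoid, endothelial, stromal, proliferation) were chosen with earlier results of these data known. Text names all members and, from each other list, at most 4 genes of smallest p, plus Kit, Ly6a, the Pim genes, Jak2 and Gata1. A gene that this rule names is not reported here. Hba-a1, F13a1, Cdh5, Cldn5 and the remaining tested endothelial genes were named after their values were seen. Exon lengths and overlaps came from GENCODE M21 (GRCm38), and gene positions from RefSeq.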

Additional observations from a re-analysis of the deposited data

How the results depend on the processing

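EdgeR called 0 genes in the whole table. The count was 657 with DESeq2, 147 with limma-voom and sample weights, 5 with no filter on low counts, 3 with the replicate block and 0 to 31 when 1 library was left out (7 without TP-3654 replicate 1, 18 without replicate 2, 31 without replicate 3). Members called were 0 except with DESeq2, which called 3 (Pear1, Treml1 and F10). Members lower at an unadjusted p under 0.05 were 2 (beside 6.84% of all genes), against 6 with DESeq2 (7.15%), 5 with limma-voom (7.15%), 6 with the replicate block (6.15%) and 1 to 9 when 1 library was left out (5.02% to 7.68%). Members higher were 6 (10.2%), against 1 to 6 when 1 library was left out (7.28% to 9.64%). Same-numbered libraries showed no sign of pairing (correlations of their deviations across genes -0.0117, -0.0150 and 0.0310). With 3 libraries a group this cannot exclude a pairing. With the replicate block the member median was -0.03. Leaving out 1 library put that median between -0.12 and 0.04.

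Of 528 values of single members under the alternatives, 511 kept their direction and side of the threshold, 3 passed it (the DESeq2 calls) and 14 changed sign. F2r (-0.00) became 0.0374 with sample weights, 0.0134 with upper quartile factors and 0.0126 with library totals, and -0.10 to 0.10 when 1 library was left out. Pdgfa (-0.01) became 0.10, 0.00713 and 0.00942 in the same settings, and -0.14 to 0.16. The ranges when 1 library was left out were -0.0457 to 0.53 for Pdgfb, -0.0016 to 0.0854 for Rgs18 and -0.11 to 0.93 for Cd226.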
